A study of Mus musculus with 9 samples.

Results

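Cytosolic ribosomal proteins, the protein subunits of the ribosome that translates nuclear mRNAs, were followed in mouse brain RNA taken next to an infarct. Members were chosen by gene symbol alone, as rows named Rpl, Rps, Rplp or Rpsa without a pseudogene suffix, which gave 83 of the 55401 rows in the deposited table. Of these, 51 belong to the large subunit and 32 to the small subunit, and 3 (Rpl32l, Rpl6l and Rps4l) are annotated as processed pseudogenes. The study compared wild-type mice at day 28 in 3 groups of 3 libraries. Sham mice had the operation without an infarct and received ultrapure water by gavage. PT mice had photothrombosis, a stroke model in which light closes vessels after a photosensitive dye is given, and received the same water. Pushen mice had photothrombosis and received Pushen, a commercial drug preparation, from the day after surgery. Doses of 391, 392 and 393 mg/kg are listed, each for 1 Pushen library, and the 3 libraries were treated as 1 group. Strain, sex and age are not given in the labels. Nor do they state that each library is a different animal, and all p-values therefore rest on variation among libraries that could be technical alone.

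Ribosomal proteins are made in nearly equal amounts, are imported into the nucleolus and are assembled there with ribosomal RNA into the small subunit, which decodes the mRNA, and the large subunit, which joins amino acids. Their mRNAs are among the most abundant of any cell, and many of them begin with a 5′ terminal oligopyrimidine (TOP) tract, a C followed by an unbroken run of C and T. The TOP tract lets the mTOR kinase and the RNA-binding protein LARP1 adjust their translation together, so that mRNA levels are only one layer of their control. In the brain, ribosomal protein mRNAs are found in cell bodies of neurons and glia and also in axons and dendrites.

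The start of the transcript is the sequence feature these genes are best known for, so windows of 15 bases before and 15 bases from the annotated first base are shown. They are given 5′ to 3′ on the gene's strand, from RefSeq on GRCm38.p6, with the TOP run in capitals. The first group holds members with a TOP run at the annotated first base. Among them are mRNAs that rose after photothrombosis (Rps6, Rps27, Rplp2 and Rpl35) and mRNAs that did not pass the test (Rpl15 and Rps15a). Rpl32l, a processed pseudogene that also rose, is shown with them.
Rps6 (chr4:86857353-86857382, minus strand): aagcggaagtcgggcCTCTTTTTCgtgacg
Rps27 (chr3:90213634-90213663, minus strand): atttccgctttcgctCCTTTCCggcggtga
Rplp2 (chr7:141447636-141447665, plus strand): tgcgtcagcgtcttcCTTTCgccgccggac
Rpl35 (chr2:39005117-39005146, minus strand): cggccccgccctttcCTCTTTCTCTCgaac
Rpl32l (chr10:20208424-20208453, plus strand): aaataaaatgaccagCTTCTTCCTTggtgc
Rpl15 (chr14:18270972-18271001, minus strand): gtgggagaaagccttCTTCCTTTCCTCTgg
Rps15a (chr7:118116133-118116162, minus strand): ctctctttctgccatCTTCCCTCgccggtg
The second group holds 3 of the largest rises, whose annotated first base does not open a TOP run. Rps27l has 2 annotated starts, and the upstream one is shown.
Rplp0 (chr5:115559452-115559481, plus strand): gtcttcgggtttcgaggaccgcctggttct
Rps9 (chr7:3704026-3704055, plus strand): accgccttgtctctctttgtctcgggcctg
Rps27l (chr9:66946071-66946100, plus strand): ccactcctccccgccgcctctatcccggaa

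A promoter row was matched for 61 of the 83 members. A TOP start, defined as C at the annotated first base followed by at least 4 pyrimidines, was found in 14 of the 61 (23.0%). The same start was found in 799 of 26964 other genes (2.96%) and in 2.51% of all 32851 promoters. Allowing the run to begin within 5 bases of the annotated start raised the members' share to 47.5%. It raised that of other genes to 21.1% and that of all promoters to 18.3%. A member or other gene was counted if any of its promoters matched, so other genes are the like comparison. The letters CTTCCGG, the core bound by ETS-family factors, were sought on either strand of the promoter (250 bases before to 50 after the start). They were present in 25 members (41.0%), in 9.86% of other genes and in 8.86% of all promoters. Part of those letters can also lie inside a TOP run. AAGATGGC, a motif of the factor YY1, was present on either strand in 5 members (8.197%), in 3.18% of other genes and in 2.75% of all promoters. These matches describe letters in a window and do not show that a factor was bound.

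Ribosomal protein transcripts took up a larger share of the RNA in both infarct groups than in sham libraries. Counts in the 83 rows made up 0.821%, 0.788% and 0.821% of all counts in the sham libraries, 1.18%, 1.09% and 0.973% in the PT libraries, and 1.02%, 1.03% and 0.982% in the Pushen libraries. The PT and Pushen libraries all lay above all sham libraries, while PT and Pushen overlapped. Summed over members, FPKM (the authors' unit, scaled to gene length and sequencing depth) was 4548 ± 147 in Sham, 6077 ± 590 in PT and 5721 ± 121 in Pushen (mean ± SD, n = 3). PT library 1 was the highest of all 9 libraries and PT library 3 the lowest of its group. Because this is bulk tissue, a change in the mix of cells and a change in RNA per cell cannot be told apart.

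**Figure D1:**
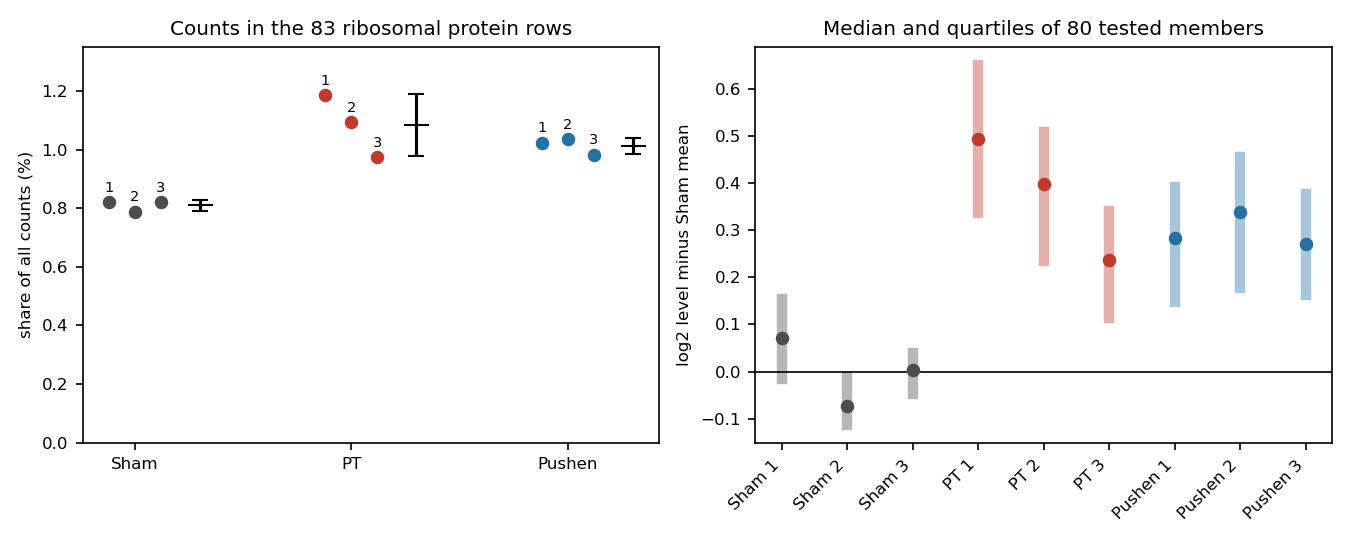
Left, the share of all counts in the 83 ribosomal protein rows, in percent, with 1 point per library and the mean ± SD of each group. Right, for each library the median (point) and quartiles (bar) over the 80 tested members of the log2 level minus the sham mean. All PT and Pushen libraries sit above the sham libraries on the left, between 0.973% and 1.18% against 0.788% to 0.821%.

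Markers of several cell types differed between these groups or within them. Depth lay between 57437342 and 75100133 deposited counts per library, and mitochondrial transcripts took 7.05% to 9.28%. Markers of microglia and macrophages were called higher after photothrombosis in 14 of 16 tested genes, and their summed level was 157 to 180 FPKM in Sham, 1091 to 1761 in PT and 666 to 1415 in Pushen, with no marker at 0 in any library. Astrocyte markers were called higher in 9 of 10, with sums of 829 to 926 FPKM in Sham, 1343 to 1728 in PT and 1178 to 1412 in Pushen. Neuronal markers were called lower in 10 of 14, with sums of 1454 to 1635, 1008 to 1256 and 1087 to 1348 FPKM. The count of lower neuronal markers was 6 without Sham library 1, and also 6 without both PT library 1 and Pushen library 2. Of the oligodendrocyte markers 7 of 10 were called higher, but 1 without Sham library 1, 2 without Sham library 2 or PT library 1, 3 without PT library 2 and 1 without both PT library 1 and Pushen library 2. Their sums were 435 to 593 FPKM in Sham, 600.5 to 1119 in PT and 818 to 903 in Pushen. Of 14 markers of T, NK, B and plasma cells 7 were tested and all 7 were higher, and 3 or 4 of the 14 were at 0 in each sham library. The count of 7 was 6 without PT library 1 or 3, Pushen library 1 or 2 or any sham library. The expression filter averages all libraries, so a marker low in sham could be tested through its infarct values. Choroid plexus markers stood out in PT library 1 (554 FPKM summed) and Pushen library 2 (635 FPKM), against 3.29 to 153 FPKM elsewhere. Striatal markers stood out in PT library 1 alone (572 FPKM, against 72.9 to 139 FPKM in the other 8). The labels name brain as the tissue but the extraction text speaks of retinas, and 1 of 12 photoreceptor genes passed the expression filter. The part of these cell types in the ribosomal protein values was not tested.

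The comparison of PT with Sham asks what photothrombosis left behind in this tissue after 28 days. In it 46 members were higher, 1 of them annotated as a pseudogene. Of the 80 tested members 46 rose and 0 fell, by edgeR's quasi-likelihood test with Benjamini-Hochberg adjustment over all 16740 tested genes and a threshold of 0.05. Over all tested genes 19.1% were called higher and 11.8% lower. The fitted log2 fold change of the tested members had a median of 0.36 (1.28-fold) and ran from 0.01 to 0.94, while the median over all tested genes was 0.00. The middle 50% of members lay between 0.25 and 0.49. For 61 of the 80 every PT library was above every sham library, against 29.3% of all tested genes. The change per gene was small and was spread over both subunits.

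**Figure D2:**
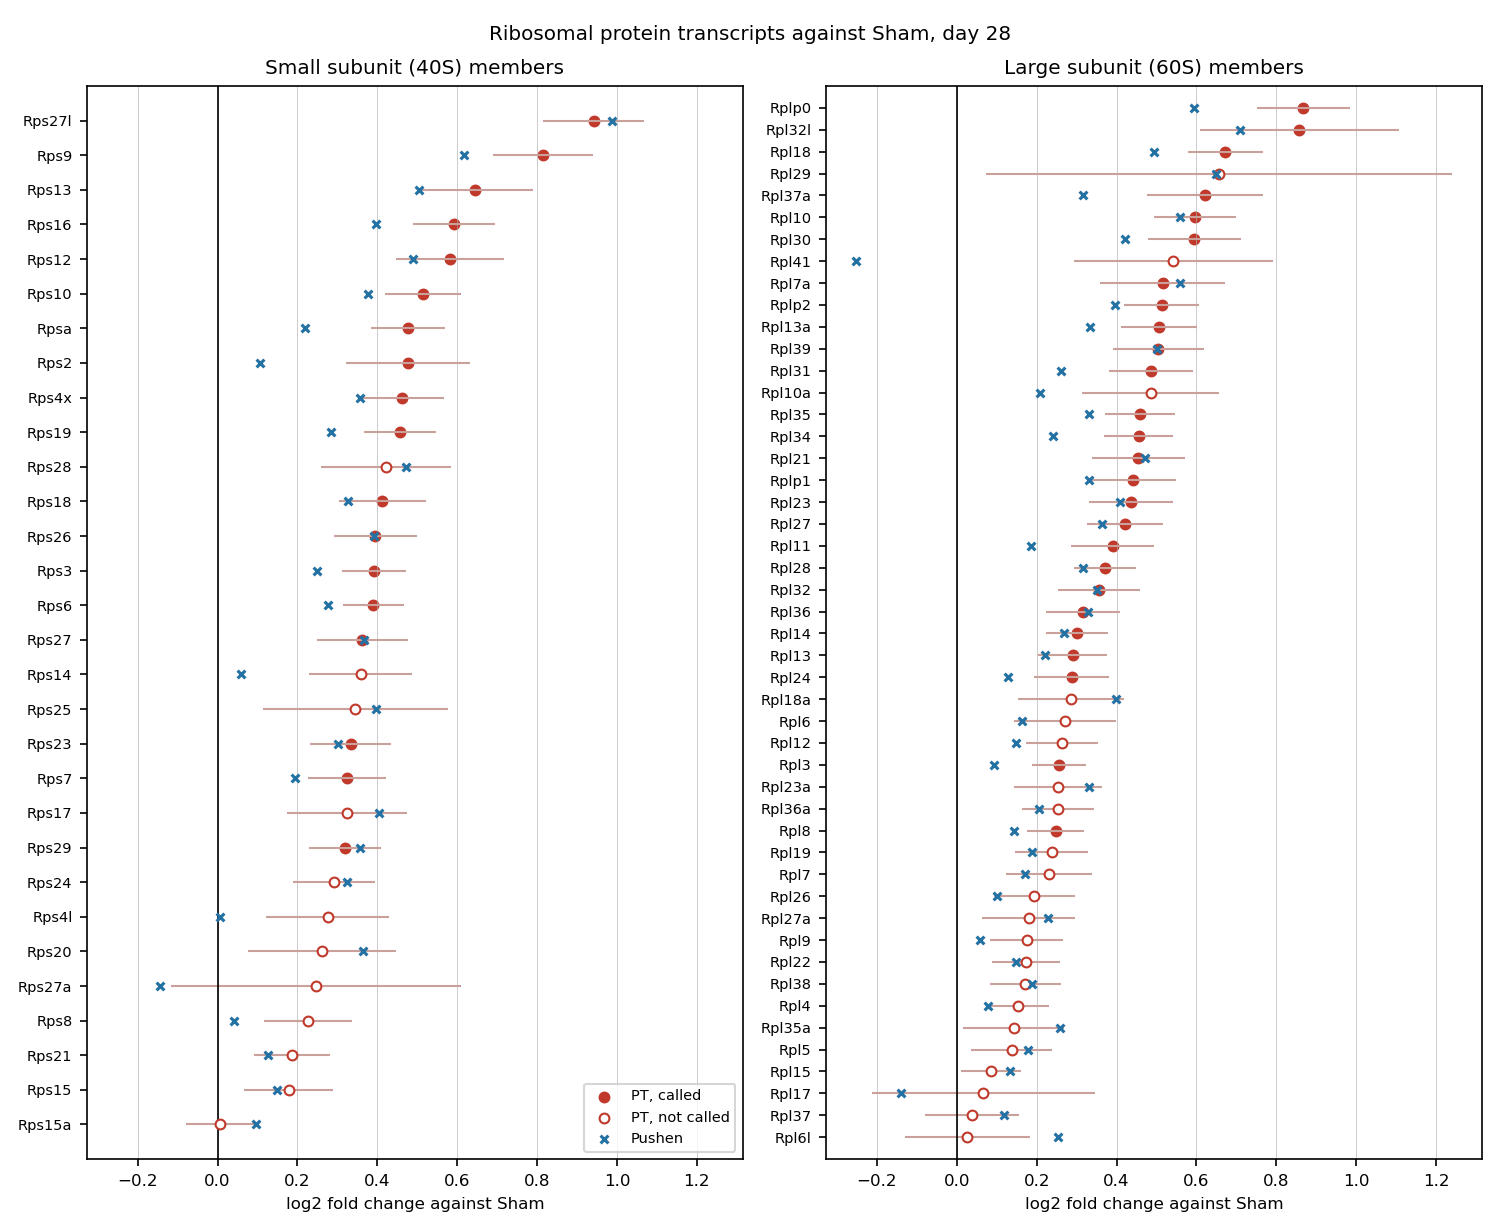
Fitted log2 fold change against Sham for 30 small-subunit and 48 large-subunit members that were tested, ordered by the PT value. Red points are PT with ± SE bars, filled where called, and blue crosses are Pushen. All 78 PT values drawn lie to the right of 0, from 0.01 to 0.94.

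The count depended on single libraries, since many members sat near the threshold. It ranged from 29 without Sham library 2 to 52 without PT library 3, and was 28 without both PT library 1 and Pushen library 2. In those fits 2365, 3358 and 2454 of all 16740 tested genes were called higher. Of the 46 called members 26 stayed called whichever single library was left out. They included Rpl10, Rpl13a, Rpl18, Rpl27, Rpl28, Rpl30, Rpl31, Rpl34, Rpl35, Rpl37a, Rpl39, Rplp0, Rplp2, Rps3, Rps4x, Rps6, Rps9, Rps10, Rps12, Rps13, Rps16, Rps19, Rps27l and Rpsa.

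The ribosomal stalk is the flexible arm of the large subunit that recruits elongation factors, and all 3 of its proteins rose. Rplp0 (ENSMUSG00000067274), the base of the stalk, stood at 69.5, 66.6 and 74.5 FPKM in Sham, at 152, 134 and 115 FPKM in PT and at 121, 116 and 96.8 FPKM in Pushen. The PT libraries were all well above the sham libraries, with PT library 1 at more than any other. Its log2 fold change was 0.87 ± 0.12 (SE, adjusted p = 0.00112), the largest of the large subunit. Rplp1, one of the acidic proteins that dimerise on the stalk, was the most abundant member per length, at 457, 400 and 435 FPKM in Sham, 698, 601 and 526 FPKM in PT and 562, 571 and 570 FPKM in Pushen. Every PT and Pushen library was above every sham library, while PT and Pushen overlapped. In PT it rose by 0.44 ± 0.11 (adjusted p = 0.0151). Without Sham library 2 its adjusted p was 0.0607. Rplp2, the partner of Rplp1, stood at 34.5, 31.2 and 34.0 FPKM in Sham, 54.2, 50.3 and 43.6 FPKM in PT and 45.5, 48.8 and 43.3 FPKM in Pushen. Its rise was 0.51 ± 0.09 (adjusted p = 0.0044), with all PT libraries above all sham libraries.

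In the small subunit 20 of 32 tested members rose, with a median log2 fold change of 0.39. Rps9 (ENSMUSG00000006333), a protein that binds early in assembly and helps to keep decoding accurate, stood at 29.1, 29.98 and 31.0 FPKM in Sham, 64.2, 56.4 and 44.7 FPKM in PT and 51.3, 50.6 and 42.9 FPKM in Pushen. The infarct libraries of both groups were clear of sham, and the rise in PT was 0.82 ± 0.13 (adjusted p = 0.00194). Rps6, the ribosomal protein that S6 kinase phosphorylates downstream of mTOR, stood at 94.9, 99.1 and 96.4 FPKM in Sham, 141, 133 and 121 FPKM in PT and 127, 127 and 114 FPKM in Pushen. Sham lay below every other library, PT and Pushen overlapped, and the rise in PT was 0.39 ± 0.08 (adjusted p = 0.00582). Rpsa, which is also a laminin receptor at the cell surface, stood at 67.0, 64.1 and 71.7 FPKM in Sham, 110, 95.4 and 88.3 FPKM in PT and 85.6, 81.4 and 80.1 FPKM in Pushen. Here the Pushen libraries lay between the other two groups without overlapping either. The rise in PT was 0.48 ± 0.09 (adjusted p = 0.00553). Rps13, a protein of the subunit's body, stood at 19.3, 15.01 and 13.6 FPKM in Sham, 28.8, 26.5 and 22.8 FPKM in PT and 22.04, 25.1 and 24.1 FPKM in Pushen, and rose by 0.65 ± 0.15 (adjusted p = 0.0108). Its PT libraries were all above sham.

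Rps2 and Rps29 rose less securely. Rps2, at the entry of the mRNA channel, stood at 59.4, 86.3 and 75.3 FPKM in Sham, 126, 99.6 and 93.4 FPKM in PT and 94.1, 79.7 and 75.04 FPKM in Pushen, and rose by 0.48 ± 0.16 in PT (adjusted p = 0.0458). Its sham libraries were spread, and the call was lost on leaving out any 1 library except Sham 2 and PT 3, with adjusted p up to 0.144 without PT library 1. Rps29, a small zinc-binding protein, stood at 171, 154 and 160 FPKM in Sham, 229, 215 and 187 FPKM in PT and 209, 225 and 217 FPKM in Pushen. It rose by 0.32 ± 0.09 (adjusted p = 0.0278) and lost the call without PT library 1 or 2 or Sham library 2 or 3, with adjusted p up to 0.0982.

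In the large subunit 26 of 48 tested members rose, with a median log2 fold change of 0.31. Rpl18 stood at 11.3, 12.8 and 12.3 FPKM in Sham, 21.8, 21.1 and 17.5 FPKM in PT and 19.2, 17.5 and 16.9 FPKM in Pushen, and rose by 0.67 ± 0.09 (adjusted p = 0.00127). Both infarct groups were clear of sham. Rpl10, which is added last to the large subunit and completes its active site, stood at 23.4, 22.8 and 23.1 FPKM in Sham, 40.5, 36.9 and 31.8 FPKM in PT and 36.3, 39.0 and 31.7 FPKM in Pushen. Its sham libraries were nearly equal and below all others, and the rise was 0.60 ± 0.10 (adjusted p = 0.0032). Rpl34 stood at 11.8, 12.01 and 12.1 FPKM in Sham, 18.6, 17.6 and 15.1 FPKM in PT and 14.5, 15.5 and 14.5 FPKM in Pushen, a rise of 0.46 ± 0.09 in PT (adjusted p = 0.00506), with PT above every sham library.

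The 6 smallest rises that passed the test all belonged to the large subunit. Rpl3, a core protein near the catalytic centre, stood at 81.7, 84.7 and 85.8 FPKM in Sham, 111, 99.98 and 102 FPKM in PT and 95.8, 92.0 and 93.5 FPKM in Pushen, and rose by 0.26 ± 0.07 (adjusted p = 0.0216). Its 3 groups formed 3 separate bands. Rpl8 stood at 127, 118 and 125 FPKM in Sham, 161, 153 and 143 FPKM in PT and 140, 145 and 143 FPKM in Pushen, and rose by 0.25 ± 0.07 (adjusted p = 0.0305). Rpl24, which forms a bridge to the small subunit, stood at 107, 99.9 and 93.8 FPKM in Sham, 143, 123 and 116 FPKM in PT and 115, 112 and 117 FPKM in Pushen, and rose by 0.29 ± 0.09 (adjusted p = 0.0458). For both genes the infarct libraries of either group lay above sham. Rpl13 stood at 54.9, 50.9 and 54.2 FPKM in Sham, 76.1, 63.6 and 63.9 FPKM in PT and 64.0, 66.7 and 64.7 FPKM in Pushen (0.29 ± 0.09, adjusted p = 0.0344). Rpl14 stood at 46.2, 47.0 and 47.2 FPKM in Sham, 66.7, 57.7 and 55.6 FPKM in PT and 59.5, 59.6 and 58.0 FPKM in Pushen (0.30 ± 0.08, adjusted p = 0.0186). Rpl36 stood at 136, 125 and 127 FPKM in Sham, 187, 168 and 147 FPKM in PT and 170.0, 175 and 165 FPKM in Pushen (0.32 ± 0.09, adjusted p = 0.0313). In these 3 genes PT library 1 was the highest of all, and sham lay below every other library. All 6 lost the call without Sham library 2 and without Sham library 3. Rpl3, Rpl13 and Rpl14 also lost it without Sham library 1, and Rpl8, Rpl13, Rpl24 and Rpl36 without PT library 1. Rpl8, Rpl24 and Rpl36 lost it without PT library 2, Rpl13, Rpl24 and Rpl36 without Pushen library 1, Rpl13 and Rpl24 without Pushen library 2, and Rpl24 without Pushen library 3. The adjusted p in those fits ran from 0.0503 to 0.141.

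Paralogs that differ in where they are expressed gave uneven results. Rps27l (ENSMUSG00000036781), a near copy of Rps27 known as a p53 target, showed the largest rise of all members. It stood at 6.01, 5.93 and 5.90 FPKM in Sham, 13.3, 12.3 and 10.1 FPKM in PT and 12.1, 13.5 and 11.6 FPKM in Pushen, and its log2 fold change was 0.94 ± 0.13 (adjusted p = 0.0011). The sham libraries were almost equal and the infarct libraries far above them. Rps27 itself stood at 78.4, 68.7 and 69.9 FPKM in Sham, 106, 99.6 and 85.2 FPKM in PT and 88.8, 110 and 94.4 FPKM in Pushen. It rose by 0.36 ± 0.11 (adjusted p = 0.0392), and the call was lost without PT library 1 or 2 or Sham library 2 or 3, with adjusted p up to 0.123. As a share of Rps27, the FPKM of Rps27l was 7.66%, 8.64% and 8.44% in Sham, 12.6%, 12.3% and 11.9% in PT, and 13.6%, 12.2% and 12.2% in Pushen. Both infarct groups thus had a higher share of the paralog than any sham library. The copies are close in sequence, so reads could be split between them.

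Of the other pairs, the tissue-restricted partner was nearly silent. Rpl10l, the testis partner of Rpl10, had 0 counts in all 9 libraries, where a count of 0 allows up to 3 counts per library. Rpl39l, also known from testis, had 8, 4 and 4 counts in Sham, 11, 8 and 0 in PT and 49, 0 and 12 in Pushen, so that 1 Pushen library held most of its reads. Rpl3l, the muscle partner of Rpl3, had 12, 24 and 17 counts in Sham, 17, 45 and 20 in PT and 25, 29 and 35 in Pushen. These 3 members averaged under 0.5 FPKM over all libraries and were not tested, while the other 80 had at least 25 counts in every library. Of the marker lists for the tissues these partners are known from, 2 of 15 muscle genes and 2 of 10 testis germ cell genes passed the filter. Rpl39, the widely expressed partner of Rpl39l, stood at 24.3, 26.1 and 26.6 FPKM in Sham, 42.7, 39.5 and 31.4 FPKM in PT and 40.8, 39.1 and 34.2 FPKM in Pushen. It rose by 0.50 ± 0.11 (adjusted p = 0.0106), with every infarct library above sham.

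Rps4x is the X-linked gene of the Rps4 protein, and Rps4l is an expressed retrocopy annotated as a pseudogene. Rps4x stood at 79.3, 75.9 and 81.4 FPKM in Sham, 128, 115 and 96.6 FPKM in PT and 111, 111 and 95.5 FPKM in Pushen, a rise of 0.46 ± 0.11 in PT (adjusted p = 0.0121). Rps4l stood at 8.22, 9.02 and 8.49 FPKM in Sham, 11.3, 10.1 and 11.03 FPKM in PT and 11.4, 7.90 and 7.77 FPKM in Pushen. Its PT libraries lay above sham, but the difference of 0.28 ± 0.15 did not pass the test (adjusted p = 0.205). Rpl32l, a processed pseudogene and the lowest tested member, stood at 1.07, 1.04 and 0.80 FPKM in Sham, 1.99, 2.06 and 1.48 FPKM in PT and 1.51, 1.75 and 1.75 FPKM in Pushen. It rose by 0.86 ± 0.25 in PT (adjusted p = 0.0302), and lost the call without PT library 1 or 2 or any sham library, with adjusted p up to 0.0927. Reads of a retrocopy can be shared with its parent gene.

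Some of the most abundant members did not pass the test. Rps15 was second to Rplp1 in mean level, at 309, 260 and 244 FPKM in Sham, 345, 318 and 294 FPKM in PT and 307, 302 and 334 FPKM in Pushen. Its groups overlapped and the PT difference was 0.18 ± 0.11 (adjusted p = 0.253). Rpl4 stood at 176, 163 and 166 FPKM in Sham, 211, 191 and 184 FPKM in PT and 189, 189 and 181 FPKM in Pushen. It lay slightly higher in every PT library than in any sham library, by 0.15 ± 0.08 (adjusted p = 0.165). Chosen after the values were seen, Rps15a, Rpl6l and Rpl37 had the smallest PT differences of all tested members, at 0.01 ± 0.09, 0.03 ± 0.16 and 0.04 ± 0.12. In all 34 tested members did not pass the test in PT, and in 15 of them every PT library was above every sham library. The same held for 29.3% of all tested genes, called or not. The share among genes that were not called was not computed, so the 15 are not read as rises.

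Some members varied more between libraries of a group than between groups. Of these, chosen after their values were seen, Rpl29 had the largest spread, at 3.66, 27.8 and 20.2 FPKM in Sham, 41.8, 17.3 and 25.2 FPKM in PT and 31.5, 27.1 and 25.9 FPKM in Pushen. Sham library 1 held 315 counts of Rpl29, against 1672 to 3823 in the other libraries. Rps27a, made as a fusion of ubiquitin with a small-subunit protein, stood at 19.8, 16.4 and 42.4 FPKM in Sham, 28.9, 46.0 and 22.02 FPKM in PT and 22.2, 27.8 and 24.4 FPKM in Pushen. Sham library 3 and PT library 2 held the high values. Rpl17 stood at 15, 26.6 and 19.4 FPKM in Sham, 18.6, 30.7 and 17.0 FPKM in PT and 15.4, 24.7 and 17.7 FPKM in Pushen, so that library 2 was the highest in each group. None of these 3 passed the test in any comparison.

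**Figure D3:**
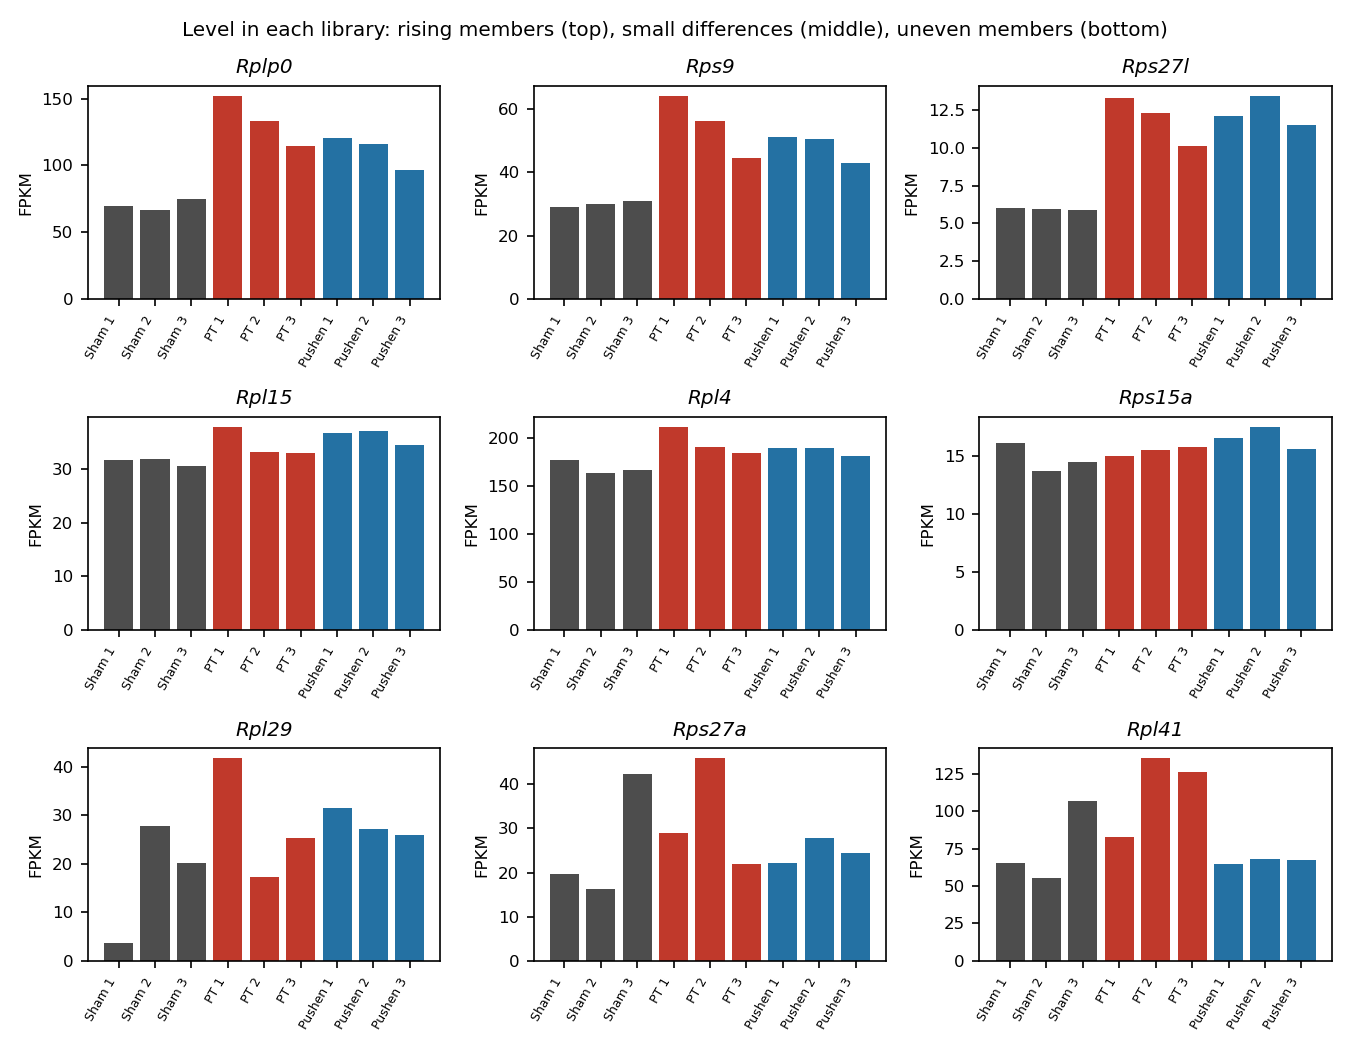
FPKM of 9 members in each of the 9 libraries, 1 bar per library, with grey for Sham, red for PT and blue for Pushen. In the top row (Rplp0, Rps9 and Rps27l) every infarct library exceeds every sham library, in the middle row (Rpl15, Rpl4 and Rps15a) no PT difference passed the test, although the sham bars of Rpl15 and Rpl4 are the lowest, and in the bottom row (Rpl29, Rps27a and Rpl41) libraries of 1 group differ widely.

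Features that the choice of members did not use were set beside the calls, and no difference between these splits was tested. The 29 tested members that hold small nucleolar RNA genes within their bounds, 56 such genes in all, rose in 18 cases with a median of 0.39. The 51 without one rose in 28 cases with a median of 0.36. Of the 14 members with a TOP run at the annotated start 9 rose (median 0.37), and of the 44 tested members with a promoter but no such run 27 rose (median 0.42). This split rests on the exact annotated base, since 29 of the 61 members with a promoter had a run starting within 5 bases of it. It therefore does not separate TOP mRNAs from others. The members lie on 19 chromosomes with 14 on chromosome 7, and 3 of the 4 on the X chromosome rose. Members that overlap another protein-coding gene rose in 10 of 19 cases, and those that overlap none in 36 of 61, which bears on reads since the strand setting of the counting is not stated in the labels.

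The comparison of Pushen with Sham shows whether the family was still raised in treated mice. Of the 80 tested members 27 were higher and 0 lower, where 13.5% of all tested genes were called higher and 2.73% lower. All 27 had also risen in PT, and 19 rose in PT alone by this threshold, a difference between counts that was not itself tested. The 2 comparisons share the sham libraries. The median log2 fold change was 0.29 (1.22-fold), and 61 members had every Pushen library above every sham library, against 27.2% of all tested genes. In the small subunit 11 of 32 passed and in the large subunit 16 of 48.

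The count of 27 was fragile. It was 17, 7 and 9 without Sham library 1, 2 and 3, it was 8 and 7 without Pushen library 1 and 2 and 19 without Pushen library 3, and it was 14 without PT library 2. Of all 16740 tested genes, 1547, 1431 and 1751 were called higher without Sham library 1, 2 and 3. The all-gene counts were 1484, 1494 and 2460 without Pushen library 1, 2 and 3, and 2033 without PT library 2. Without Sham library 2 or 3 or Pushen library 1 or 2, the members' share was therefore close to that of all genes. The members that stayed called whichever library was left out were 7, among them Rpl10, Rpl18, Rplp0, Rps9 and Rps27l. Among called members Rps27l differed most, at 0.99 ± 0.13 (adjusted p = 0.00135), followed by Rps9 at 0.62 ± 0.12 (adjusted p = 0.0104) and Rplp0 at 0.59 ± 0.12 (adjusted p = 0.00918).

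The comparison of Pushen with PT asks what the drug changed in tissue next to the infarct. No ribosomal protein passed the test in this comparison. By edgeR 0 of 80 members were called in either direction, 7 had an unadjusted p under 0.05, and the smallest adjusted p was 0.707. DESeq2 also called 0 members, with 7 at an unadjusted p under 0.05. Over all tested genes edgeR called 0% higher and had 1086 at an unadjusted p under 0.05. The members' median log2 difference was -0.08, with 21 above 0 and 59 below. It was -0.01, with 38 above 0, without PT library 1. Every Pushen library was below every PT library in 4 members (Rpl41, Rps14, Rpsa and Rpl3), against 5.19% of all tested genes, and above in 1 (Rpl6l), against 7.25%.

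The members of smallest unadjusted p are given as values only. Rpl41, the shortest ribosomal protein, stood at 65.3, 55.7 and 107 FPKM in Sham, 83.03, 136 and 126 FPKM in PT and 64.8, 67.9 and 67.5 FPKM in Pushen. The Pushen libraries were nearly equal and below PT, while sham ranged across both. The difference was -0.79 ± 0.25 (unadjusted p = 0.0112, adjusted p = 0.707 by edgeR). For Rpsa it was -0.26 ± 0.09 (unadjusted p = 0.0203, adjusted p = 0.707 by edgeR), and for Rps2 it was -0.37 ± 0.16 with the same adjusted p. For Rplp0 it was -0.27 ± 0.12, and for Rps27l, at 0.05 ± 0.12, the sign was positive. A p that misses the threshold does not show that the drug left these mRNAs at the same level.

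Genes that work with the ribosome were compared in PT against Sham by the same test, in which 19.1% of all tested genes were called higher and 11.8% lower. Of 8 relatives that the symbol rule left out 4 were higher and 0 lower, with a median of 0.35. Fau, a ubiquitin-like protein fused to the small-subunit protein eS30, stood at 77.9, 80.6 and 87.4 FPKM in Sham, 136, 127 and 110 FPKM in PT and 114, 116 and 103 FPKM in Pushen, and rose by 0.54 ± 0.09 (adjusted p = 0.00271). Rack1, a scaffold on the small subunit, rose by 0.91 ± 0.19 (adjusted p = 0.0074), and Rps3a1 by 0.38 ± 0.08 (adjusted p = 0.00984). Of 20 other mRNAs known to start with a TOP, 11 rose and 1 fell, with a median of 0.27. The list shares Rack1, Fau and several elongation factors with the other lists. Tpt1, a growth-related protein, rose by 0.85 ± 0.11 (adjusted p = 0.000868), Btf3, a chaperone at the ribosome exit, by 0.56 ± 0.08 (adjusted p = 0.00123), and Vim, the intermediate filament of reactive astrocytes, by 3.20 ± 0.27 (adjusted p = 0.000446). Without Sham library 2, PT library 1 or PT library 2, 7 of the 20 were called higher. The 1 lower call held only without Sham library 3, PT library 3 or Pushen library 3.

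Elongation factors were split, with 4 of 10 higher and 2 lower. Eef1a1, the factor that brings aminoacyl-tRNA to the ribosome, stood at 409, 424 and 457 FPKM in Sham, 763, 689 and 614 FPKM in PT and 638, 623 and 543 FPKM in Pushen, and rose by 0.62 ± 0.10 (adjusted p = 0.00258). Eif5a2 fell by 0.55 ± 0.11 on the log2 scale (adjusted p = 0.00692). Eef1a2, the isoform of mature neurons and muscle, chosen after its values were seen, had a difference of -0.37 ± 0.12 that passed at an adjusted p of 0.0496 and was lost without PT library 1 or 2, Pushen library 1 or any sham library. The count of higher elongation factors was 1 without Sham library 1 or 2, PT library 1 or 2 or Pushen library 1, and 2 without Sham library 3 or Pushen library 2 or 3. Initiation factors showed 1 higher and 4 lower of 38, with a median of -0.08. The 1 higher call was lost on omission of Sham 2, Sham 3, PT 1 or PT 2, and without PT library 3 there were 2. Eif5b, which joins the subunits, fell by 0.33 ± 0.07 (adjusted p = 0.00853) and the scaffold Eif4g3 fell by 0.31 ± 0.07 (adjusted p = 0.0092).

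The nucleolar machinery that builds ribosomes had few calls. Of 50 genes for ribosome biogenesis and RNA polymerase I, 2 were higher and 4 lower, with a median of -0.08. The count of higher genes was 0 without Sham library 1 and 1 without Sham library 2 or PT library 1 or 2. The count of lower genes was 0 without Sham library 1, 1 without Sham library 2 or PT library 1, 2 without PT library 2 or Pushen library 1, and 10 without PT library 3. Mitochondrial ribosomal proteins, which form a separate ribosome, had 2 of 78 higher, 3 lower and a median of -0.08. Their higher count was 0 on omission of PT 1, PT 2, Sham 2 or Sham 3, and 1 without Sham library 1 or Pushen library 1. Their lower count was 0 without Sham library 1 or 2, 1 without PT library 1 or 2, and 5 without Pushen library 3. Among regulators of mTOR and of TOP mRNAs 4 of 22 were higher and 3 lower, with a median of -0.20. These shares are near those of all tested genes, 19.1% higher and 11.8% lower. Rps6ka1, a kinase of Rps6, rose by 1.01 ± 0.13 (adjusted p = 0.000838), and Eif4ebp1 and Ddit4, both brakes on mTOR signalling or its output, rose by 1.27 ± 0.19 and 1.23 ± 0.21 (adjusted p = 0.00187 and 0.00285). The count of lower regulators was 0 without Sham library 1, 1 without Sham library 3, PT library 1 or Pushen library 2, and 6 without PT library 3. Of 14 tested RNAs that host small nucleolar RNAs 1 was higher and 1 lower. The higher call was lost on omission of PT 1, PT 2 or any sham library. Without Sham library 1 a different RNA of this list was called higher. Of 14 tested p53 targets 7 were higher and 1 lower. Cdkn1a, an inhibitor of the cell cycle, rose by 0.84 ± 0.14 (adjusted p = 0.0028). The lower call among p53 targets was lost on omission of Sham 1, Sham 2, PT 1, PT 2, Pushen 1 or Pushen 2. Rows named as ribosomal protein pseudogenes were tested in 116 of 306 cases, and 23 were higher and 0 lower with a median of 0.51. The share called higher is near the 19.1% of all tested genes. The count of 23 was 10 without Sham library 2, where 2365 of all 16740 tested genes were called higher. It was 15 without Sham library 1 or PT library 1. In Pushen against PT no gene of these lists was called.

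**Figure D4:**
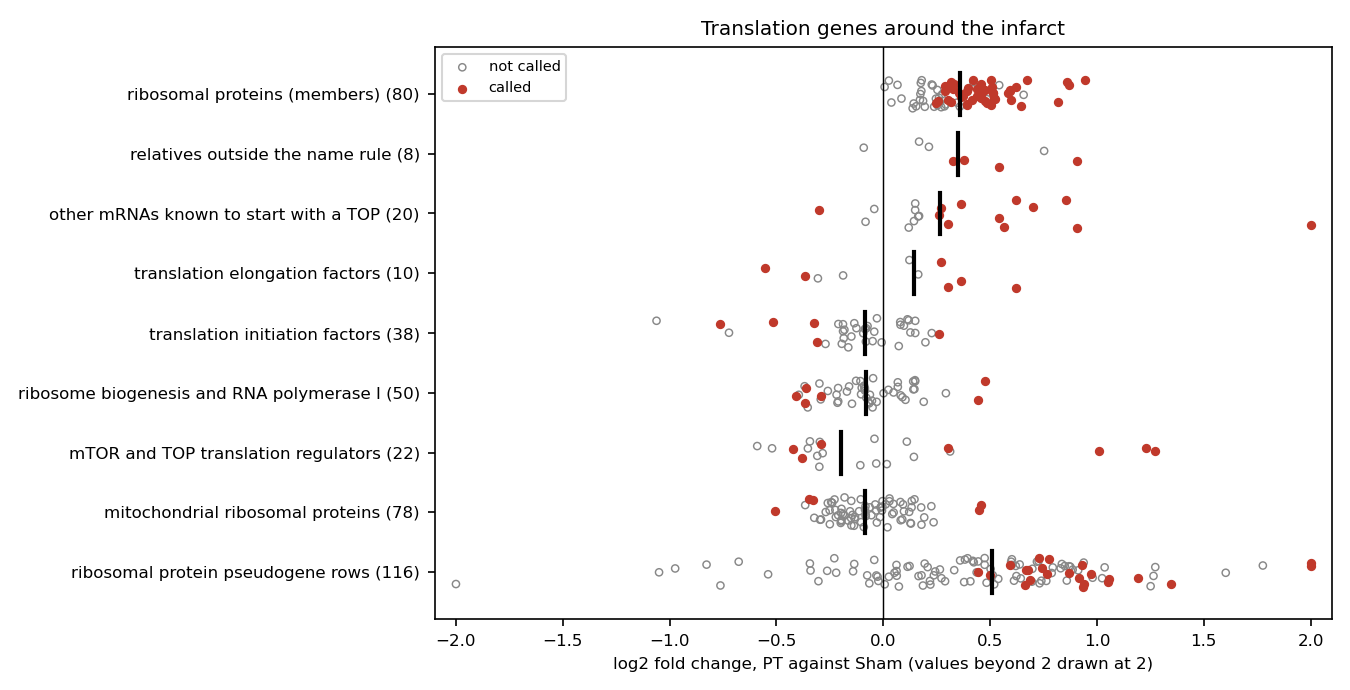
Fitted log2 fold change of PT against Sham for the members and 8 related gene lists, 1 point per tested gene, filled red where called, with a black bar at each median and values beyond 2 drawn at 2. Medians are 0.36 for the members, 0.35 for relatives outside the symbol rule and -0.08 for mitochondrial ribosomal proteins.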

How the data were processed

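Per the labels' protocols, total RNA was made into libraries with Illumina's TruSeq kit. Each of the 9 libraries has a column of unnormalised read counts and a column of FPKM, both as deposited, with FPKM adjusted by the authors for gene length and depth. The 18 columns could all be tied to a library by their names. Bowtie 0.12.2 and build mm8 are named in the submitters' processing notes, whereas 94.2% of the table's genes shared with GENCODE M21 have the start and end given there on GRCm38. The sources used here do not say how reads were counted or whether strand was used.

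Testing was restricted to the 16740 genes averaging 0.5 FPKM or more across libraries. A single edgeR 4.0.16 model (R 4.3.3) held the 3 groups, with TMM scaling of the counts, the quasi-likelihood test and Benjamini-Hochberg adjustment over all tested genes. The SE was obtained from the log2 fold change and the test's F. No libraries of a group held identical values. Alternatives used DESeq2 1.42.0, limma 3.58.1, other filters and scalings, a block for the replicate number and omission of libraries. The code was tested on simulated data. The members, lists and tests were chosen with earlier results of these data known.

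Values in every library are given for paralog pairs, stalk proteins, Rpsa, Rps6, the 6 largest and 6 smallest called rises in PT, the 5 members of smallest p in each other comparison and the 4 members of highest and lowest mean FPKM. From each list, at most the 3 genes with the lowest p are named. Values of some members chosen this way are not reported here. Totals per library limit precision for low members only.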

Additional observations from a re-analysis of the deposited data

How the results depend on the processing

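The members' median log2 fold change kept its sign and moved by less than 1 SD between replicates (0.088) in every alternative run, in all 3 comparisons. For Pushen against PT this limit cannot show stability, because the median of -0.08 is itself smaller in size than that SD. That median came closer to no difference without PT library 1. In PT against Sham the count of 46 higher members was 28 without PT library 1 and Pushen library 2, and ran from 29 to 52 when 1 library was left out. DESeq2 called 51, beside 3603 of all 16707 genes, and scaling by library size only called 52, beside 3565 of 16740. In Pushen against Sham the count of 27 was 9 with no filter on low values, 41 with limma on log2(FPKM + 0.1), 16 without PT library 1 and Pushen library 2, and from 7 to 38 when 1 library was left out. Where it was 7, without Sham library 2 or Pushen library 2, 1431 and 1494 of all 16740 tested genes were called higher. The all-gene counts were 2295 of 35527 with no filter and 2477 of 16740 with limma on log2(FPKM + 0.1). Without PT library 1 and Pushen library 2 the all-gene count was 1678 of 16740. Correlations of deviations from the group means lay between -0.22 and 0.10 for equal replicate numbers and between -0.10 and 0.15 for unequal ones. Deviations within a group offset each other, so these values cannot exclude that equal numbers share a day or batch. With the replicate number as a block the counts of higher members were 39 in PT and 12 in Pushen against Sham. In those fits 2814 and 1866 of all 16740 tested genes were called higher. In Pushen against PT every alternative called 0 members. Of the values of single named members under the alternatives, 90 lost the call in PT against Sham and 59 in Pushen against Sham, 1 and 32 gained one, and no called value changed sign. The share of members with a TOP start was 23.0% at the annotated first base and 47.5% within 5 bases of it. The cause of these changes was not tested. Scaling by library size moved the median of all genes in PT against Sham to 0.06. With 3 libraries per group, rises near 0.3 on the log2 scale sit at the threshold.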
